A study of Mesocricetus auratus with 6 samples.

Results

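RNA of the subunits of the cytosolic chaperonin CCT was compared within the pregnant uterus of the Syrian golden hamster, Mesocricetus auratus, at day 5, when embryos implant. They were chosen by name from the platform annotation: every probe set whose gene symbol is 1 of TCP1, CCT2, CCT3, CCT4, CCT5, CCT6A, CCT6B, CCT7 and CCT8. Single-gene probe sets were found for 8 of the 9 genes, 11 probe sets in all, out of 11963 genes on the array. All 3 probe sets of TCP1 are annotated to SNORA29 as well, so they are described separately and not as TCP1. The family was proposed with results of these arrays known, so its differences between the groups are given as a description, and its calls support nothing.

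The groups were 3 arrays of uterine pieces holding an implanting embryo (implantation sites) and 3 of pieces between embryos (interimplantation sites). Neither group was treated, and no genotype, age or pooling is given in the labels. The arrays are named biological replicates, and RNA came from 3 animals, but which animal or animals lie behind an array is not stated. Errors therefore measure the spread between arrays. If the same 3 animals gave both groups, some arrays share an animal, while the main fit treats all arrays as independent. Its errors, intervals and calls rest on that assumption. The question put by the design is how RNA of a piece with its implanting embryo differs from RNA of a piece between embryos.

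CCT, also called TRiC, is a barrel of stacked rings in which each position of a ring is taken by a different but related subunit. It folds newly made proteins inside its cavity with the energy of ATP, and actin and tubulin are its main and obligate clients. The subunits TCP1, CCT2, CCT4 and CCT5 lie on the side of the ring that binds ATP tightly, and CCT3, CCT6, CCT7 and CCT8 on the side that binds it weakly. CCT6 is made from a widely expressed gene, CCT6A, and from CCT6B, which is known mainly from testis. The assembled ring holds the subunits in equal number, and its demand is known to grow with cell growth and division.

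Subunit probe sets were brighter at implantation sites in nearly all cases, on both sides of the ring. Of the 11 probe sets, 10 had a higher mean at implantation sites and 1, a probe set of CCT6A, a lower one. CCT4 had the largest difference, 1.73-fold, followed by CCT8 at 1.43-fold and CCT3 at 1.42-fold. At the brightest probe set of each gene the differences ran from log2 0.13 for CCT6A to log2 0.79 for CCT4, with a median of 0.41, while the median over all genes was −0.0069.

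The values are log2 summaries of brightness made with RMA, and differences are implantation minus interimplantation. In limma's fit over all probe sets, with Benjamini-Hochberg adjustment at 0.05, 4 of the 11 subunit probe sets passed higher, against 0.702% of all 22215 probe sets, and 0 passed lower, against 0.356%. Without adjustment, p was under 0.05 for 8 higher and 1 lower, but the share of all probe sets at that level was not counted. The groups did not overlap in 8 probe sets that were higher and 1 that was lower, where 7.72% and 8.30% of all probe sets had that order. Because this contrast was known when the family was proposed, nothing is read from these shares. The probes match human transcripts, and how well each matches the hamster one is not known. Brightness of different probe sets therefore gives no order of subunit levels, and dimness says nothing of presence or of change.

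**Figure D1:**
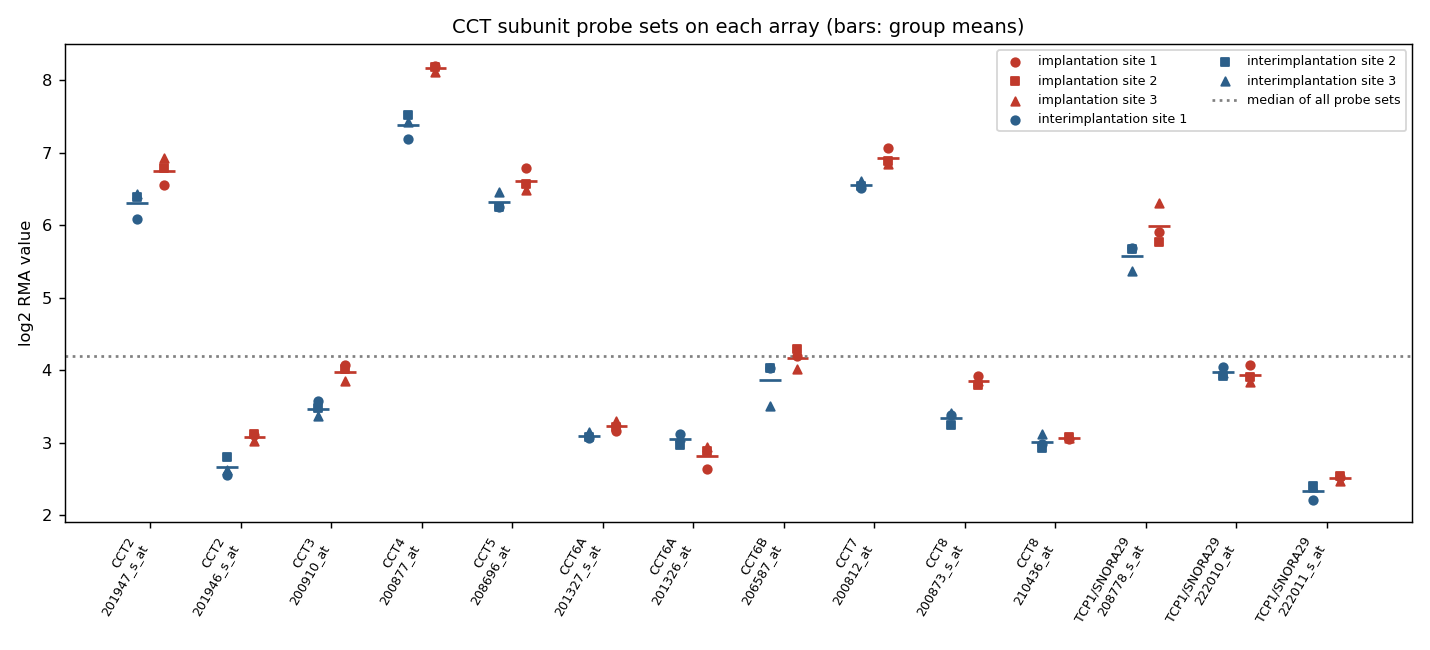
Log2 RMA value (vertical axis) of each CCT probe set and of the 3 probe sets shared by TCP1 and SNORA29 (horizontal axis) on the 6 arrays, with implantation sites in red, interimplantation sites in blue and bars at group means. CCT4 separates the groups most, from 7.19 to 7.53 at interimplantation sites against 8.11 to 8.20 at implantation sites, and the dotted line marks the median of all probe sets, 4.19.

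On the side of the ring that binds ATP tightly, CCT4 is the delta subunit, which can form rings of its own when made alone. Its probe set 200877_at read 8.20, 8.19 and 8.11 on implantation arrays 1, 2 and 3, and 7.19, 7.53 and 7.43 on interimplantation arrays 1, 2 and 3. The groups lay well apart, and the implantation arrays were the tighter of the groups (SD 0.05 against 0.17, n = 3 each). The difference was log2 0.79 ± 0.09 (SE), with a 95% interval of 0.59 to 0.99. It passed the threshold and was the 41st highest of all probe sets. It also passed whichever array was left out, with differences of 0.69 to 0.86.

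CCT2, the beta subunit, which has also been described as a receptor for clearing protein aggregates, was read by 2 probe sets that gave nearly the same difference at very different brightness. The bright one, 201947_s_at, read 6.55, 6.79 and 6.93 at implantation sites and 6.09, 6.39 and 6.44 at interimplantation sites. The groups stood side by side without overlap, with a difference of log2 0.45 ± 0.11 (SE) that did not pass the threshold. The dim one, 201946_s_at, read 3.11, 3.12 and 3.02 against 2.56, 2.80 and 2.62. Its difference of 0.42 ± 0.08 (SE) passed, on a smaller spread between arrays, although only 19.8% of probe sets were dimmer. The bright probe set passed with array weights and with a replicate block. The dim one passed without just 1 of the 6 arrays and not without the others. Both names end in _s_at. Where CCT8 and CCT6A had a probe set without that ending, it gave the lower difference (0.060 and −0.23).

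CCT5, the epsilon subunit, which like CCT4 can assemble into rings by itself, showed the smallest difference on this side of the ring. Its probe set 208696_at read 6.79, 6.57 and 6.48 at implantation sites and 6.26, 6.26 and 6.46 at interimplantation sites. The lowest implantation array and the highest interimplantation array were nearly level. The difference was log2 0.29 ± 0.10 (SE), with a 95% interval of 0.07 to 0.50, whose upper end lay under the lower end for CCT4 (0.59).

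TCP1, the alpha subunit, which gave the complex an older name, can be read only together with SNORA29, a small nucleolar RNA gene. The brightest of the 3 shared probe sets, 208778_s_at, read 5.90, 5.77 and 6.30 at implantation sites and 5.69, 5.67 and 5.37 at interimplantation sites. Its groups did not overlap, and the difference was log2 0.42 ± 0.13 (SE), or 0.26 without implantation site 3, its highest array. Of the other two, 222011_s_at was dim and stood at 0.18 ± 0.08 (SE), while the groups of 222010_at overlapped, at −0.038 ± 0.083 (SE). In limma's fit 0 of the 3 passed; unadjusted p was under 0.05 for 2, both higher.

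On the side that binds ATP weakly, CCT8 and CCT3 had differences of the same size. CCT8 is the theta subunit, whose added supply has been reported to raise assembly of the whole complex. Its brighter probe set, 200873_s_at, read 3.92, 3.80 and 3.85 at implantation sites and 3.38, 3.24 and 3.42 at interimplantation sites. Both groups were tight and far apart, with a difference of log2 0.51 ± 0.08 (SE) that passed the threshold. This difference passed also whichever array was left out, with limma's adjusted p up to 0.0479, close to the threshold. The dimmer probe set, 210436_at, read 3.06, 3.08 and 3.07 against 2.98, 2.92 and 3.11. These groups overlapped, and the interval of the difference, −0.11 to 0.23, did not reach the difference at the brighter probe set.

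CCT3, the gamma subunit, read 4.07, 4.02 and 3.85 at implantation sites and 3.57, 3.48 and 3.37 at interimplantation sites at its 1 probe set, 200910_at. The groups did not overlap, and the difference of log2 0.51 ± 0.09 (SE) passed the threshold. It passed without 2 of the 6 arrays in turn and not without the other 4.

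CCT7, the eta subunit, had the tightest interimplantation values among the bright subunit probe sets. Its probe set 200812_at read 7.06, 6.89 and 6.84 at implantation sites and 6.52, 6.55 and 6.61 at interimplantation sites. The groups did not overlap. The difference of log2 0.37 ± 0.08 (SE) did not pass over all probe sets, but did when every probe set under the median brightness was left out.

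CCT6A, the zeta subunit, was the exception, since its 2 dim probe sets went opposite ways. Probe set 201327_s_at read 3.16, 3.22 and 3.30 at implantation sites and 3.07, 3.08 and 3.15 at interimplantation sites. Its groups were barely apart, and the interval of the difference, −0.03 to 0.29, held 0. Probe set 201326_at read 2.63, 2.89 and 2.94 against 3.12, 2.96 and 3.08, a difference of −0.23 ± 0.09 (SE), without overlap. Neither passed the threshold, so these arrays settle no direction for CCT6A.

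CCT6B, the second zeta gene, read 4.20, 4.29 and 4.01 at implantation sites and 4.03, 4.04 and 3.51 at interimplantation sites at probe set 206587_at. The groups overlapped, and interimplantation site 3 stood apart as the lowest array. The difference was log2 0.31 ± 0.13 (SE), and 0.13 without that array.

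**Figure D2:**
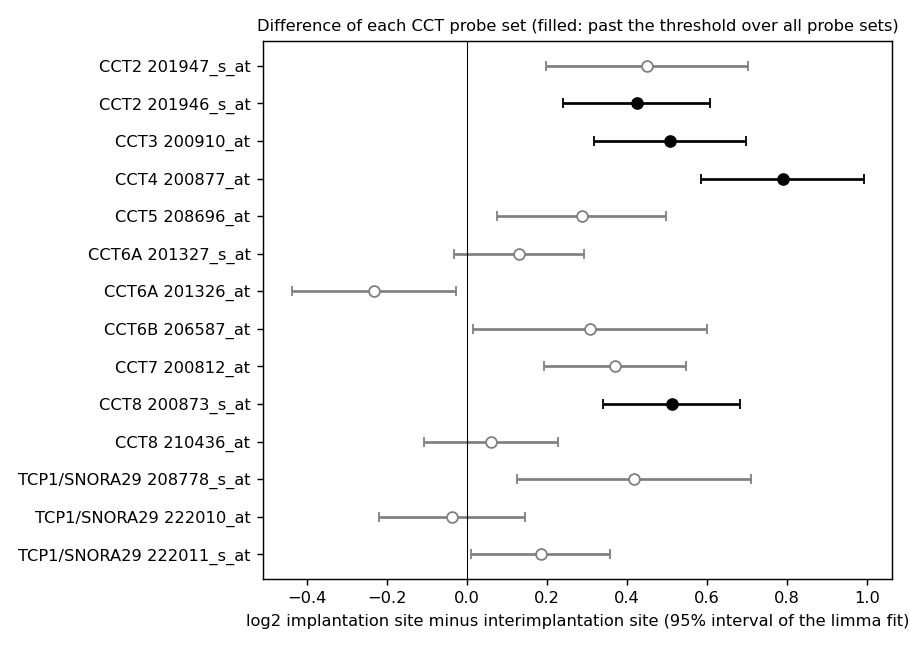
Difference in log2 value, implantation minus interimplantation (horizontal axis), of each CCT probe set and each probe set shared by TCP1 and SNORA29 (vertical axis), with 95% intervals of limma's fit and filled points past the threshold. The intervals of CCT4, CCT3, CCT7, CCT8 at 200873_s_at and both CCT2 probe sets lie above 0, as do those of CCT5 and CCT6B by less, and 1 probe set of CCT6A lies below 0.

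The order of the differences by gene, from the highest, was CCT4, CCT8, CCT3, CCT2, CCT7, CCT6B, CCT5 and CCT6A. The intervals of all neighbours in this order overlapped. The interval of CCT4 began above the ends of those of CCT7 (0.55), CCT5 (0.50) and CCT6A (0.29), while it overlapped those of CCT8 (0.68), CCT3 (0.70), CCT2 (0.70) and CCT6B (0.60). The sides of the ring did not separate by difference, since each held a subunit near the top of the order and one near its foot.

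Brightness differed widely among the subunit probe sets. At the brightest probe set, 4 of the 8 genes (CCT2, CCT4, CCT5 and CCT7) lay at or above the median brightness of all probe sets, 4.19, and each of them lay above the third quartile, 5.18. CCT3, CCT6A, CCT6B and CCT8 lay below the median. Of the 11 probe sets, 3 lay under the first quartile of 3.10, one each of CCT2, CCT6A and CCT8. With the genes at their brightest probe sets, limma called 3 of 8 higher (CCT3, CCT4 and CCT8), against 0.777% of all genes, and 0 lower, against 0.460%, with 0 lower also at an unadjusted p under 0.05. CCT4 was the one bright subunit among them. The call count over the 11 probe sets went from 4 to 2 without implantation site 1, without implantation site 2 or without interimplantation site 3.

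**Figure D3:**
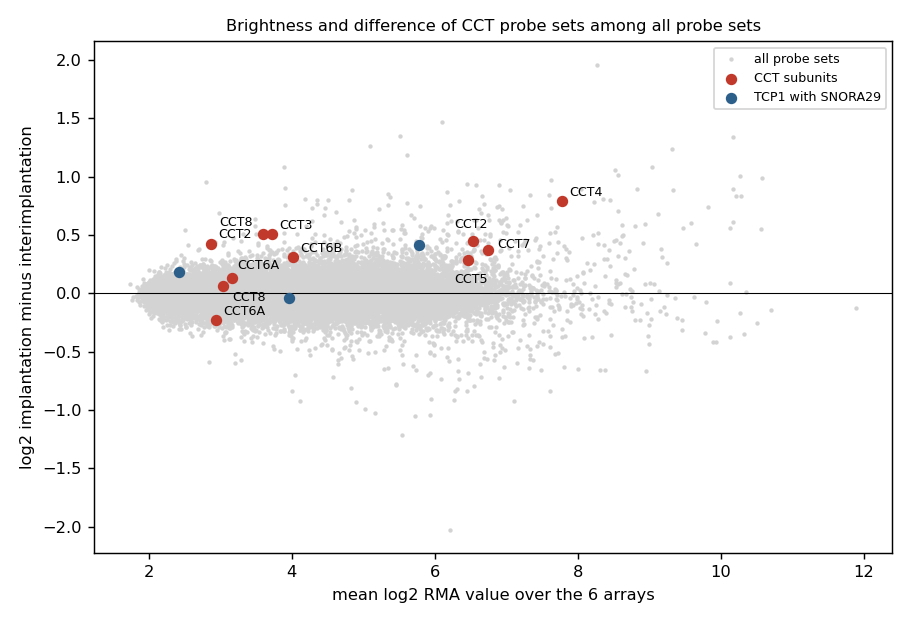
Mean log2 value over the 6 arrays (horizontal axis) against the difference, implantation minus interimplantation (vertical axis), for all 22215 probe sets in grey, CCT probe sets in red and those shared by TCP1 and SNORA29 in blue. CCT2, CCT4, CCT5 and CCT7 form a bright set at differences of 0.29 to 0.79, and the dim CCT probe sets spread from −0.23 to 0.51.

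Within a group, most but not all subunits were high and low on the same arrays. After each gene's mean over the 6 arrays was taken away, the mean of the 8 subunits was 0.24, 0.22 and 0.17 on implantation arrays 1, 2 and 3, and −0.24, −0.18 and −0.20 on interimplantation arrays 1, 2 and 3. These means were close within each group and far apart between groups. Single subunits did not all order the arrays alike. Implantation site 1 held the highest implantation value of 5 subunits (CCT3, CCT4, CCT5, CCT7 and CCT8) and the lowest of 2 (CCT2 and CCT6A). Implantation site 3 held the lowest implantation value of 5 subunits and the highest of 2. Interimplantation site 1 held the lowest interimplantation value of 5 of the 8 and the highest of 1, CCT3. One of these lowest values, that of CCT5, was nearly level with interimplantation site 2. Interimplantation site 3 held the highest interimplantation value of 5 subunits and the lowest of 2.

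Each subunit was also set against the mean of the others over the 6 arrays, as a description that includes the difference between groups. Pearson's r was 0.97 for CCT4, 0.95 for CCT7, 0.94 for CCT8 and 0.93 for CCT3. It was 0.79 for CCT5, 0.74 for CCT2 and CCT6A, and 0.54 for CCT6B, the gene known mainly from testis. Among 7270 other genes at or above the median brightness, those most like the subunits' mean profile were EIF2S2, PSMA7, RAN, GAPDH and PSMA3, with r of 0.993 to 0.999 over the same 6 arrays. EIF2S2 encodes a subunit of a translation initiation factor, and PSMA7 and PSMA3 encode subunits of the proteasome core. RAN drives nuclear transport, and GAPDH is a glycolytic enzyme. All 5 had groups that did not overlap, so r includes the step between groups. The likeness rests on 1 probe set per gene: read without probe sets ending in _x_at or _s_at, EIF2S2 stood at −0.13 and RAN at −0.077.

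**Figure D4:**
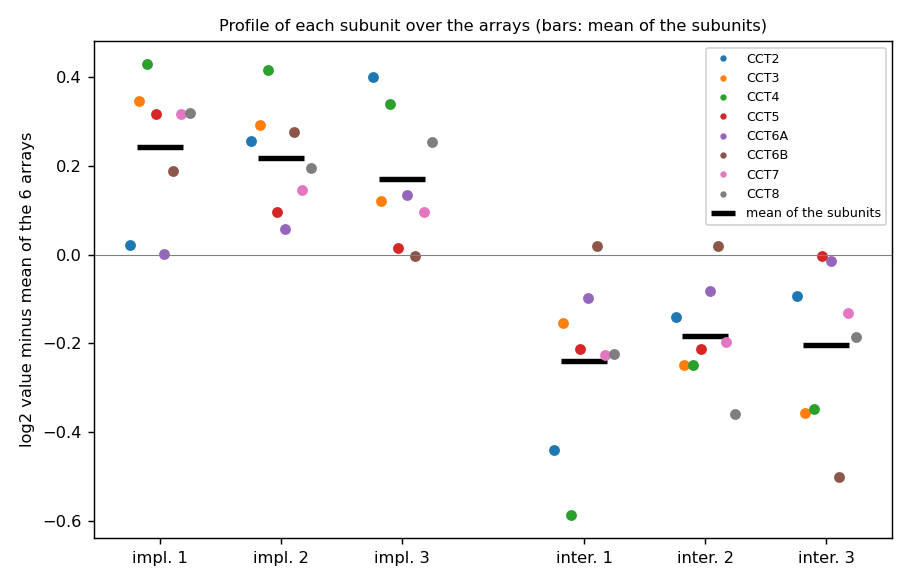
Log2 value minus the mean of the 6 arrays (vertical axis) for each of the 8 subunit genes at its brightest probe set on each array (horizontal axis), with the mean of the subunits as a black bar. The bars stand at 0.17 to 0.24 on implantation arrays and −0.24 to −0.18 on interimplantation arrays, and the order of the subunits changes from array to array.

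Clients and helpers of the chaperonin were taken from textbook lists drawn up with earlier results of these arrays known. Each gene was read at its brightest probe set and compared in limma's fit over all 11963 genes, of which 1.24% passed. For these lists and the markers, rose and fell mean past that threshold. The share of all genes with an unadjusted p under 0.05 was not counted, so nothing is read from such counts below. Tubulins, which need CCT to fold, rose in part. Of 19 tubulins and tubulin cofactors, 12 had a higher mean and 7 a lower one, with a list median of 0.05. Past the threshold, 6 rose and 0 fell. TUBA1B rose by log2 0.99 ± 0.09 (SE, adjusted p = 0.000375), TUBB3 by 0.89 ± 0.11 (adjusted p = 0.00221) and TUBA1C by 0.83 ± 0.09 (adjusted p = 0.000847). TUBA4A, TUBB4B and TUBB rose by 0.53, 0.51 and 0.48 (adjusted p = 0.00935, 0.0219 and 0.0143). When single arrays were left out, the calls of TUBA4A, TUBB4B and TUBB were lost in 1, 5 and 3 of 6 cases, with adjusted p up to 0.0580, 0.0751 and 0.0713, and that of TUBB also with probe sets averaged by gene. TUBB4B also missed the threshold after repeated quantile normalization (0.41, adjusted p = 0.0742). Apart from TUBA4A these were read by probe sets marked as open to cross-hybridisation, which cannot separate close isotypes, and the 1 probe set of TUBB without that mark stood at −0.060. The cofactors TBCA, TBCB, TBCC, TBCD and TBCE, which assemble tubulin after CCT releases it, lay between −0.18 and 0.056, and none of the 5 passed.

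Actins, the other main clients, gave differences on both sides of 0. Of 7 measured actin genes 3 had a higher mean and 4 a lower one, with a median of −0.07. Past the threshold, 0 rose and 1 fell, and unadjusted p was under 0.05 for 2, both lower. ACTG2, the gamma-actin of smooth muscle, fell by 0.80 on the log2 scale (adjusted p = 0.0392), a call lost without 5 of the 6 arrays in turn, with the replicate block and with probe sets averaged by gene. ACTA1, skeletal alpha-actin, stood at −0.51 (adjusted p = 0.0513) and passed lower with either brightness filter, array weights (adjusted p = 0.0114), the replicate block (0.0498) or a trended robust variance (0.0418), and without implantation site 1 (0.0141). ACTB, the cytoplasmic actin of most cells, stood at 0.15 ± 0.08 (SE), and ACTA2, of smooth muscle, at 0.15 ± 0.08 (SE).

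Prefoldin, which hands unfolded actin and tubulin to CCT, and the other cofactors gave differences that centred near 0. The list of 10 measured genes also holds PTGES3 and HSF1, described below. Of the 10, 0 passed in limma's test, with a median of 0.0067, while unadjusted p was under 0.05 for 2 higher and 1 lower gene. The prefoldin genes PFDN5 and VBP1 stood at −0.39 ± 0.12 and 0.24 ± 0.10 (SE), PFDN5 passing lower with the replicate block (adjusted p = 0.0499), and PTGES3, the HSP90 cochaperone p23, at 0.26 ± 0.10 (SE). HSF1, the heat shock factor that can drive chaperone genes, stood at 0.0038 ± 0.092 (SE). Of 21 other clients, among them proteins of the WD40 fold, 0 passed in limma's test, with a median of 0.05, while unadjusted p was under 0.05 for 3 higher genes and 0 lower ones. These were CDC20 (0.29, adjusted p = 0.148), BUB3 (0.27, adjusted p = 0.292) and PLK1 (0.18, adjusted p = 0.43).

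Among other chaperonins, HSPD1, which folds proteins inside mitochondria, rose by 0.85 ± 0.09 (SE, adjusted p = 0.000847), about as much as CCT4 differed. Its partner HSPE1 stood at 0.23 ± 0.09 (SE), and MKKS, a CCT-related protein of the cilium, at 0.11 ± 0.08 (SE). Of 4 measured genes of this list 1 rose and 0 fell. Of 22 other cytosolic chaperones and cochaperones 1 rose, HSP90AA1 (1.26 ± 0.12 SE, adjusted p = 0.000324), and 0 fell, with a median of 0.03, and unadjusted p was under 0.05 for 6, all higher. HSP90AB1 stood at 0.31 (adjusted p = 0.125). HSPA4 stood at 0.49 (adjusted p = 0.0513), passed with either brightness filter, the replicate block (0.0447) or without interimplantation site 2 (0.00677), and turned to −0.023 without probe sets ending in _x_at or _s_at. HSP90AA1 rose at 1 of its 4 probe sets and stood at 0.39 with probe sets averaged by gene.

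**Figure D5:**
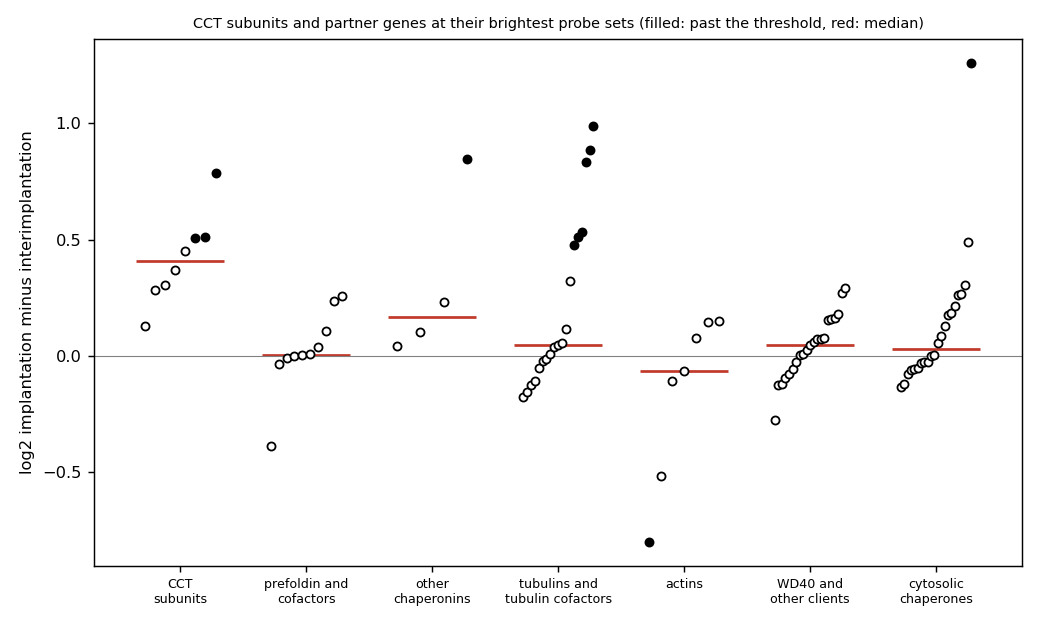
Difference in log2 value, implantation minus interimplantation (vertical axis), of each gene at its brightest probe set, for the CCT subunits and 6 partner lists (horizontal axis), with filled points past the threshold over all genes and red bars at list medians. The median is 0.41 for the subunits and between −0.07 and 0.17 for the partner lists, and in the list of tubulins and tubulin cofactors 6 genes rose while the others lie between −0.18 and 0.32.

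Some measures of tissue make-up and RNA quality moved with the groups. In bulk tissue, fewer cells of a type and less RNA per cell cannot be told apart. The summed linear value of 18 genes of dividing cells was 619 to 637 at implantation sites and 529 to 545 at interimplantation sites, and 2 of the 18, CCNA2 and PCNA, rose while 0 fell, where 0.777% of all genes rose. Unadjusted p was under 0.05 for 10 of the 18, all higher, but nothing is read from this without the share of all genes. Both genes that rose were dim. CCNA2 lay below the median brightness, and PCNA lay under the first quartile, 3.10, in both groups. Over all 18 the median difference was 0.21, with 13 genes higher and 5 lower. The call of PCNA was lost without implantation site 3 or interimplantation site 3, and that of CCNA2 with probe sets averaged by gene, where its difference went from 0.80 to 0.41 (adjusted p = 0.0591). That of 8 epithelial markers was lower, at 176 to 189 against 194 to 202, with 0 passing in limma's test and an unadjusted p under 0.05 for 2, both lower. That of 3 red cell genes was lower too, at 302 to 325 against 332 to 371, but the genes went both ways, with HBB at −0.31, ALAS2 at −0.16 and SLC4A1 at 0.16. None of the 3 passed in limma's test, and unadjusted p was under 0.05 for HBB. Summed values overlapped between groups for the 8 trophoblast and embryo markers, 7 leukocyte markers, 6 endothelial markers and 8 uterine stroma and muscle markers. In these 4 lists 0 genes passed in limma's test, and at an unadjusted p under 0.05 only 1 of the stroma and muscle markers differed. No marker has a value of 0 on this scale. Of the stroma and muscle markers 7 of 8 were at or above the median brightness, among them VIM and MYH11, while PGR, the progesterone receptor, was below it. Actin signal at the 3′ end minus that at the 5′ end was −2.08 ± 0.22 at implantation and −1.70 ± 0.15 at interimplantation sites (log2, SD, n = 3; exact two-sided permutation p = 0.1, the smallest possible). The same measure for GAPDH was −0.20 ± 0.16 and 0.13 ± 0.17 (exact p = 0.2), and its groups overlapped. How well these control probes match hamster RNA is not known, so the values may not reflect RNA quality alone. The part of these measures in the subunit differences was not tested.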

How the data were processed

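For every probe set on each array the deposited file holds 1 log2 value, which the authors obtained by RMA with Partek 6.6, per the submitters' processing notes. RMA corrects background, brings arrays to a like distribution and summarises each probe set, so a change of total RNA per piece is not visible. Its settings and the log base were not given in the sources used here, and log2 was read from the range of the values. Array medians were 4.18 to 4.20, and the number of arrays limits the precision. The probes were designed on human transcripts. Of 22283 probe sets 68 controls were left out; annotation gave 1 gene to 19065, several to 1043 and none to 2107. RefSeq symbols of the hamster assembly held all 9 subunits. No sequence was used here.

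The fit used limma 3.58.1 under R 4.3.3 (eBayes after lmFit, two-sided, no covariate, Benjamini-Hochberg over probe sets, or over genes at their brightest probe set). Subunit values come from the fit over probe sets. The fit was tested on simulated data with changes planted only at or above the median brightness. The simulation therefore did not cover calls at dimmer probe sets. Named genes were all members, partners past the threshold or, where fewer than 3 passed, the 3 of smallest p, markers past it, and the 5 genes of highest likeness; ACTB, HSF1, the TBC cofactors, VIM, MYH11, PGR and the red cell genes were named after their values were seen. Members and lists were chosen with earlier results of these data known. Same-numbered arrays of the groups deviated together with correlations of 0.054, −0.0025 and 0.070. Alternatives covered normalization, brightness filters, array weights, a replicate block, the variance model, the choice of probe set and leaving out each array.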

Additional observations from a re-analysis of the deposited data

How the results depend on the processing

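The median difference of the subunits, 0.41, stayed positive under all alternatives run. It was 0.34 with the mean of all probe sets of a gene and 0.31 without probe sets ending in _x_at or _s_at. The latter removed both probe sets of CCT2 and left CCT8 read at 210436_at (0.060) and CCT6A at 201326_at (−0.23). The median was 0.45 without CCT6B, an alternative chosen after seeing the data, as was adding TCP1 with SNORA29 (0.42). Leaving out single arrays gave 0.37 to 0.43. The count of subunit probe sets past the threshold, 4 of 11, was 2 of 4 after probe sets under the median brightness were removed, where fewer were tested, and 2 to 3 when single arrays were left out. Over all probe sets the count of 235 went to between 119 and 227, and over genes that of 148 to between 75 and 154, when single arrays were left out, and to 59 of 8369 genes without _x_at and _s_at probe sets. The latter choice turned the direction of CCT6A (−0.23), TUBB (−0.060), HSPA4 (−0.023), EIF2S2 (−0.13) and RAN (−0.077), which are then read by other probe sets. Deviations of same-numbered arrays were nearly uncorrelated, which cannot decide whether the replicate numbers pair the arrays, since the animals behind them are not stated. With the number as a replicate block 5 of 11 subunit probe sets and 252 of all probe sets passed, and 163 genes. No array holds counts, so depth is not defined, and dim probe sets (CCT6A, and the dimmer ones of CCT2 and CCT8) limit what can be said.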
